A study of Mus musculus with 10 samples.

Results

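The interval between 1 and 3 h after NIH3T3 cells were moved from 33 to 38 °C is described here, as the later phase of their response to warming. It is covered by 2 of the 10 samples of the study, 1 taken at 1 h and 1 at 3 h, chosen by their labels, and each sample has 2 columns of exon counts and 2 of intron counts. NIH3T3 is an established, wild-type mouse fibroblast line. Cells were seeded at 37 °C for 4 h and held at 33 °C for 16 h before the move, and the samples at 0, 6 and 9 h of the same course are used to place the interval. The opposite course, cells held at 38 °C and moved to 33 °C, has samples at the same times. The columns carry series numbers, 2 and 13 for warming and 5 and 11 for cooling, and the labels do not say whether these are separate cultures. With 1 sample per time there is no test of the conditions. A gene is called here where its level differed at least 1.5-fold in the same direction in both series, and "rose" and "fell" are kept for such genes.

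Total RNA holds unspliced precursors as well as mature RNA. Reads in introns come mostly from precursors, which are short-lived and follow transcription closely, while reads in exons come mostly from mature RNA, which accumulates or decays more slowly. Warming of mammalian cells is known to activate heat shock factors, which drive genes for chaperones, the proteins that help others fold, and serum response factor with its actin-sensing coactivators drives genes of the contractile cytoskeleton in fibroblasts.

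Exon totals of the 4 columns at 1 and 3 h ran from 35766710 to 42042385 reads, and intron totals from 15635217 to 24590271. Levels are given in CPM, counts scaled so that the exon reads, and likewise the intron reads, of every column sum to the same total, and changes as log2(CPM + 0.25). All 9 fibroblast markers examined were present, with Col1a1, a fibrillar collagen, between 1767 and 5623 CPM. The summed exon level of the 5 epithelial markers was 0.445 to 4.45 CPM, that of the 5 leukocyte markers 8.29 to 17.7, that of the 4 endothelial markers 2.29 to 7.40, that of the 4 muscle markers 0.938 to 1.51 and that of the 4 neuronal markers at most 0.0561. Krt18 and Cldn4 among the epithelial, Kdr among the endothelial, Snap25 and Syt1 among the neuronal, and Myod1 and Myog among the muscle markers were at 0 in all 4 columns. The series stood apart from each other at a given time beyond the noise of counting (a chi-square of 255 per degree of freedom at 1 h and 272 at 3 h). Levels of single genes are therefore mostly given for each series. Some changes and most list medians use the mean of the 2 series. Fewer cells expressing a gene and less RNA per cell cannot be told apart in such samples.

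From 1 to 3 h, mature RNA and precursors changed in similar numbers of genes, and few genes were called on both. On exon reads 110 of 11220 genes rose (0.98%) and 77 fell (0.686%), 1.67% in all. On intron reads 106 of 11589 genes rose (0.915%) and 103 fell (0.889%), 1.8% in all. Of the 97 genes with a rise on exons and a measured intron level, 5 also rose on introns, and of the 71 with a fall on exons, 5 also fell on introns. Both are larger shares than the 0.915% and 0.889% of all genes that rose and fell on introns. The median change over all genes was 0.01 on exons and 0.06 on introns. At any size, 4066 of the 11220 genes were higher on exons in both series and 3541 were lower. On introns, 5072 of the 11589 were higher in both series and 2417 were lower. The per-gene difference between the series had a median of 0.15 on exons and 0.17 on introns, and was under 0.54 and 0.63 for 95% of genes. With TMM scaling in place of column totals the median of all genes on introns was -0.003, and 74 genes then rose and 148 fell. That puts rises at 33.3% of the intron calls instead of 50.7%, and at 31.7% with the size factors of DESeq2 (72 rises and 155 falls).

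**Figure D1:**
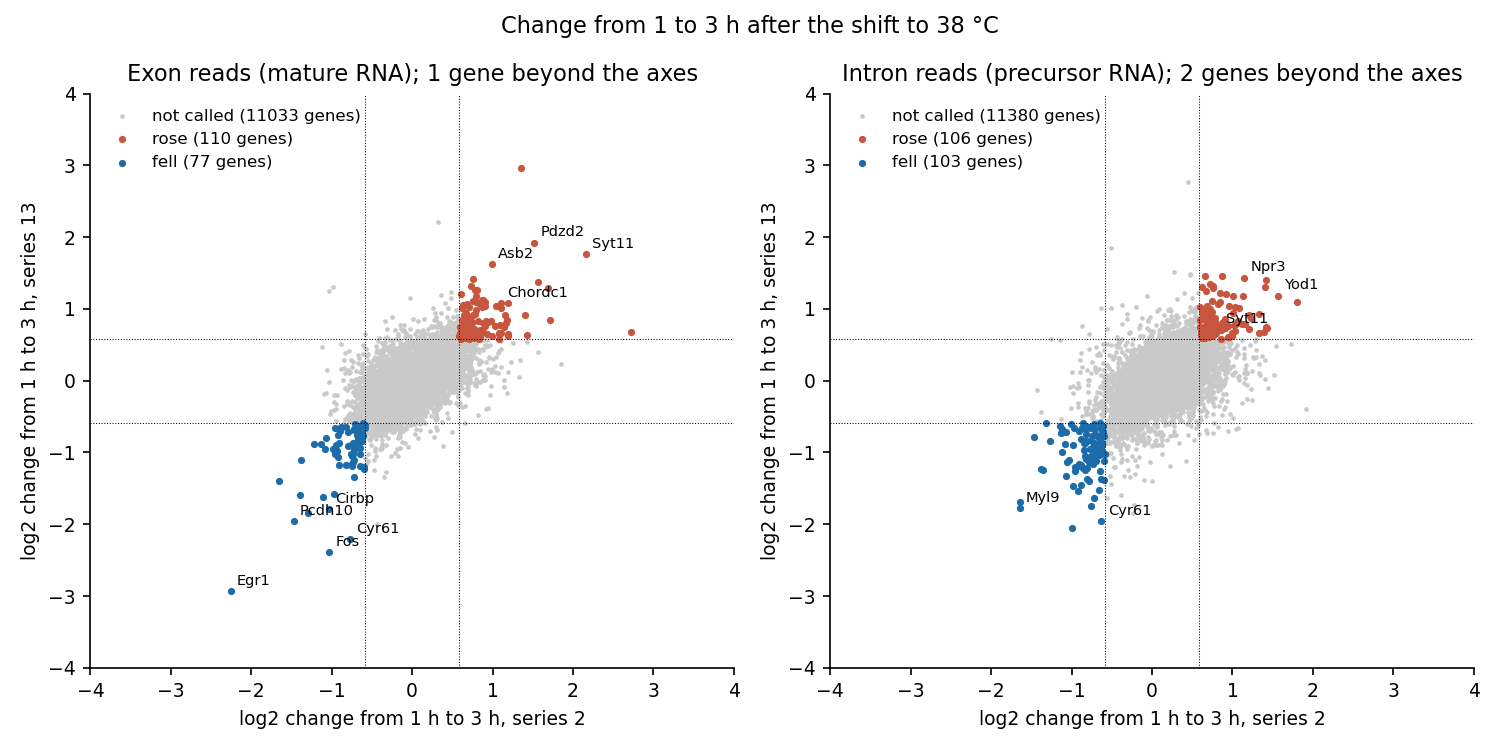
Change of each gene from 1 to 3 h at 38 °C (log2 scale) in series 2 on the horizontal axis and series 13 on the vertical axis, for exon reads on the left and intron reads on the right; dotted lines mark 1.5-fold. Genes past the lines in both series are coloured, 110 rises and 77 falls on exons and 106 rises and 103 falls on introns, and Egr1 and Pdzd2 on exons and Myl9 on introns lie far out in both series.

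In the first hour, 432 genes had risen on intron reads (3.73% of genes tested) and 381 had fallen (3.29%). Of the 432 early precursor rises, 52 fell again from 1 to 3 h and 1, Syt11, rose further. At any size of change, 265 of the 432 were lower at 3 h than at 1 h in both series and 72 were higher in both. Of all 11589 genes, 2417 were lower and 5072 higher in both. At 3 h, 206 of the 432 still stood at least 1.5-fold over 0 h (3.43% of all genes did), among them 13 of the 52 that had turned back. Of the 319 early rises with a measured exon level, 36 rose on exons from 1 to 3 h and 4 fell. Both steps use the sample at 1 h, so its scatter enters the early rise and the later fall alike. The largest early rise was that of Cass4, a docking protein of adhesion signalling, with 0.322, 2.46 and 1.36 intron CPM at 0, 1 and 3 h in series 2 and 0.896, 7.96 and 2.19 in series 13, and its later fall was not called with a pseudocount of 1 CPM. Rarb, a retinoic acid receptor, went from 6.04 to 25.7 and 19.6 CPM and from 2.87 to 19.7 and 9.52 CPM, changes of -0.39 and -1.03 after 1 h that were not called. The largest rises thus differed among themselves in how far they had come back at 3 h.

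Early rises were also chosen in 1 series and read in the other. The series are columns of the same samples and may not be separate cultures. Scatter of the sample at 1 h can thus still enter both the choice and the reading. Of 920 rises chosen in series 2 (7.94% of genes), 15.4% turned back in series 13, against 3.09% of all genes in that series. Among those with an exon level, 12% rose on exons in series 13, against 2.3% of all genes. Of 690 rises chosen in series 13 (5.95% of genes), 12.2% turned back in series 2, against 1.68% of all genes, and 14.2% rose on exons, against 3.27%. The median intron level of these genes over 0 h went from 0.71 at 1 h to 0.61 at 3 h and 0.62 at 9 h in series 2, and from 0.55 to 0.39 and 0.40 in series 13. Their median exon level over 0 h went from 0.09 at 1 h to 0.34 at 3 h and 0.35 at 9 h in series 2, and from 0.05 to 0.27 and 0.28 in series 13. Over all genes the median intron level went from 0.04 at 1 h to 0.15 at 3 h in series 2 and from -0.07 to -0.03 in series 13, so the early risers came down further against all genes than their own medians show. Their exon level at 3 h was close to that at 9 h.

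**Figure D2:**
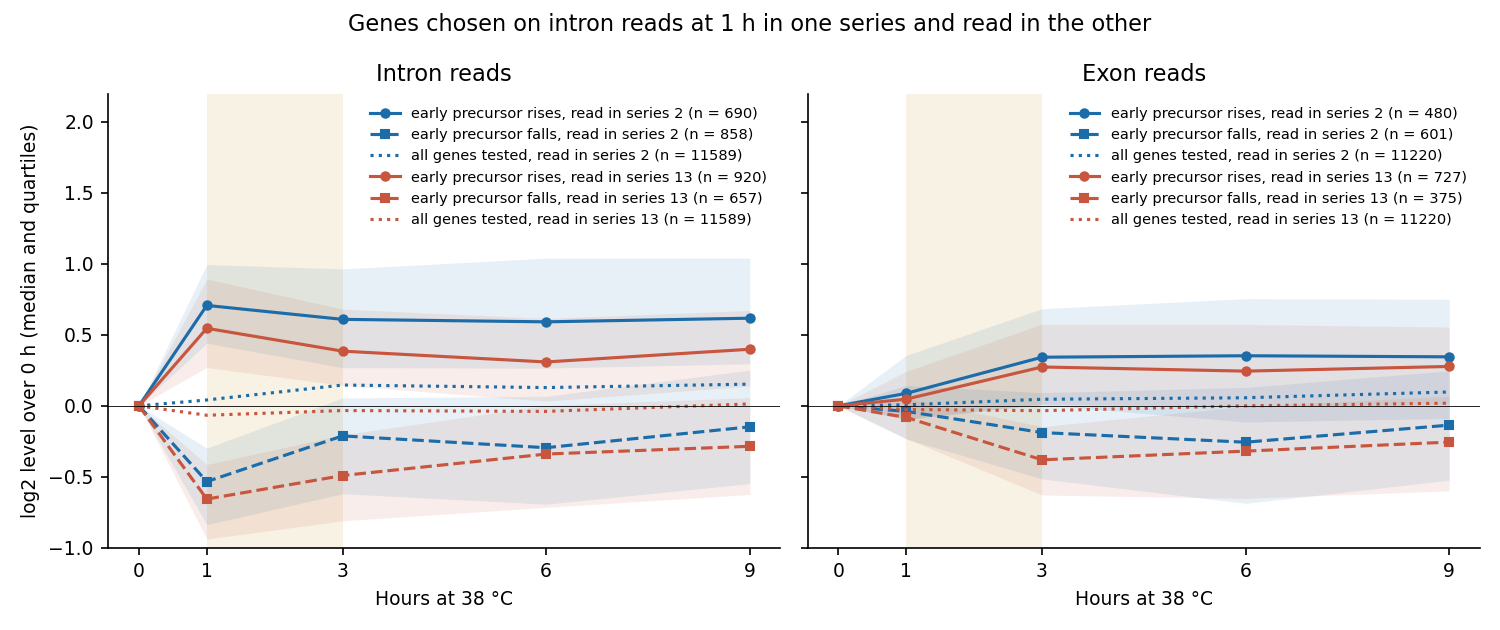
Median log2 level over 0 h against hours at 38 °C, for intron reads on the left and exon reads on the right, with quartiles as shaded bands; genes were chosen as early rises (solid) or falls (dashed) on introns at 1 h in one series and read in the other, and dotted lines show all genes. Between 1 and 3 h (shaded) the intron medians of the risers went from 0.71 to 0.61 and from 0.55 to 0.39, while their exon medians went from 0.09 to 0.34 and from 0.05 to 0.27.

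Chaperone genes of the heat shock response made up 21 of the early precursor rises, and by 3 h 6 of the 33 measured on introns had turned back: Hsph1, Dnajb1, Dnaja1, Dnaja4, Ahsa2 and Bag3. None rose on introns. Over all genes tested on introns, 3.73% had risen by 1 h and 0.889% fell from 1 to 3 h. On exons 3 of 35 rose from 1 to 3 h, Ahsa2, Chordc1 and Dnajb2, and none fell, while 0.98% of all genes rose and 0.686% fell. The list's median change was -0.27 on introns and 0.33 on exons, beside 0.06 and 0.01 for all genes. At any size, 25 of 33 were lower on introns in both series and 26 of 35 were higher on exons in both. Over all genes, 2417 of 11589 were lower on introns and 4066 of 11220 higher on exons in both. On exons 12 of the 35 had already risen by 1 h, when 0.722% of all genes had.

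Hsph1 codes for a large chaperone of the Hsp110 family that works with Hsp70. Its intron reads stood at 129, 505 and 309 CPM at 0, 1 and 3 h in series 2, and at 147, 681 and 427 CPM in series 13. The exon reads of Hsph1 were 152, 402 and 492 CPM in series 2 and 153, 540 and 1000 CPM in series 13. The precursor fell to 0.62 of its level at 1 h (log2 change -0.71 and -0.67) while the mature RNA was higher in both series, by 0.29 and 0.89, short of a call. Dnajb1, a J-domain partner of Hsp70, had 7.05, 31.9 and 20.7 intron CPM in series 2 and 6.06, 33.8 and 18.1 in series 13. Unlike Hsph1, its exon reads did not increase after 1 h, with 98.0, 264 and 222 CPM in series 2 and 83.9, 313 and 222 in series 13.

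Dnaja1, another J-domain partner, fell on introns from 137 to 79.7 CPM in series 2 and from 138 to 62.3 in series 13. Its exon reads went from 157 to 233 and from 152 to 218 CPM, log2 changes of 0.57 and 0.52, just under the threshold. Ahsa2, a relative of an activator of Hsp90, showed both movements past the threshold. On introns it fell from 174 to 98.6 and from 220 to 104 CPM, and on exons it rose from 83.6 to 133 and from 81.4 to 148 CPM. In the annotation the genes of Dnaja1 and Ahsa2 overlap other genes, so part of their intron reads may belong to those. Hsph1 and Dnajb1 overlap none.

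Chordc1, a co-chaperone of Hsp90, had the largest rise on exons of the list. Its mature RNA went from 83.0 to 179 CPM in series 2 and from 79.6 to 169 CPM in series 13 (mean log2 change 1.09), after an intron level that had risen from 95.4 to 231 and from 79.8 to 272 CPM in the first hour. The intron level of Chordc1 was then 196 and 165 CPM at 3 h, changes of -0.24 and -0.72. Dnajb2, a J-domain protein, had exon reads of 6.87, 13.5 and 22.8 CPM at 0, 1 and 3 h in series 2 and 12.4, 18.7 and 29.1 in series 13. Its intron reads were 27.7, 62.5 and 64.7 CPM in series 2 and 46.1, 79.5 and 73.6 in series 13. The mature RNA of Dnajb2 had thus already risen by 1 h, together with its precursor, and rose again by 3 h, while that of Chordc1, at 61.4 and 40.2 CPM at 0 h, was not called by 1 h.

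**Figure D3:**
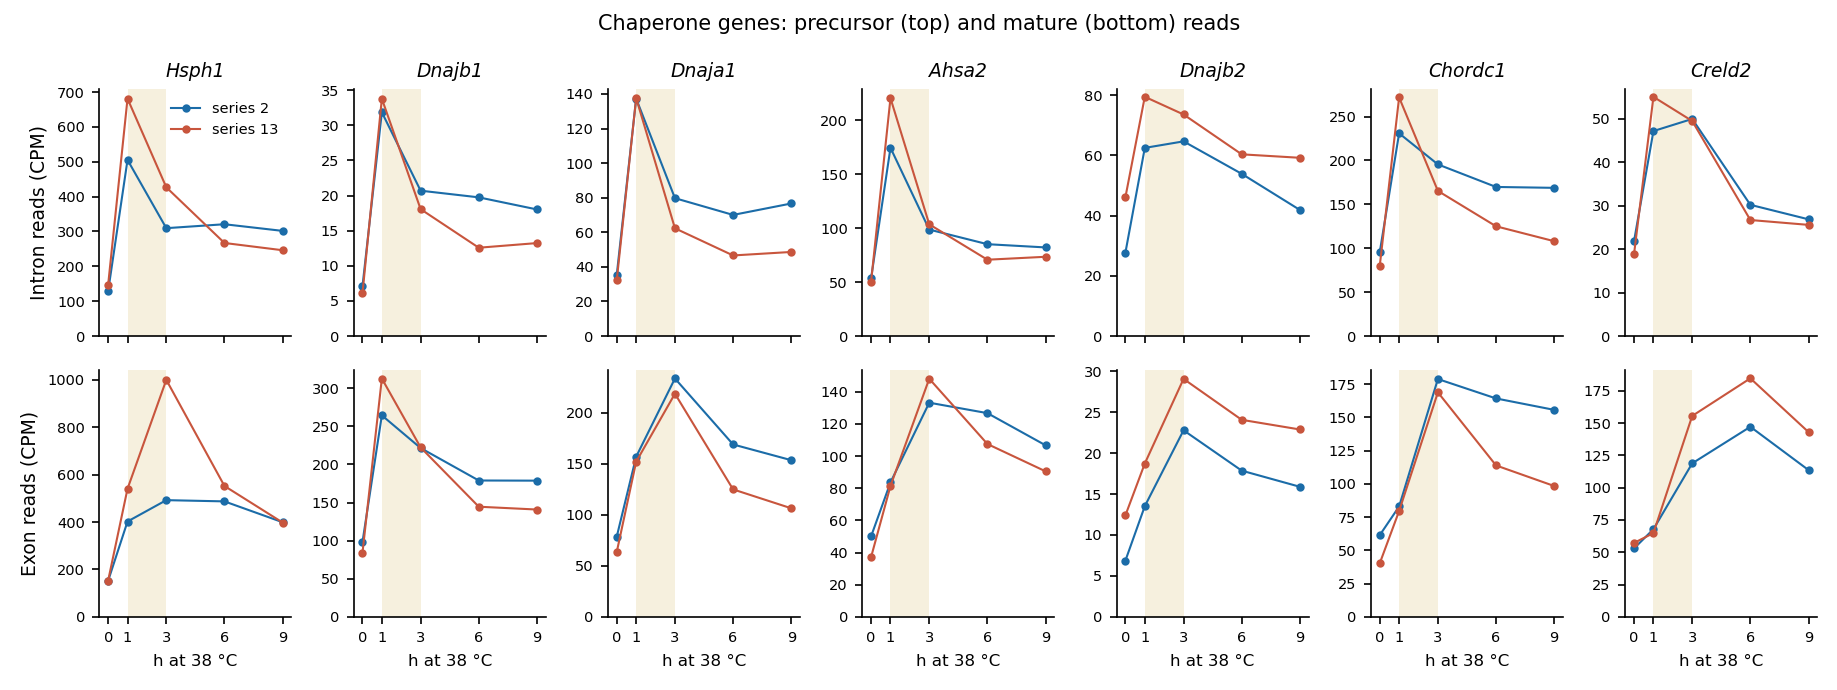
Intron reads (top) and exon reads (bottom) in CPM against hours at 38 °C for 7 genes, with 1 line per series and the interval from 1 to 3 h shaded; vertical axes start at 0. Intron reads peak at 1 h in both series for Hsph1, Dnajb1, Dnaja1, Ahsa2 and Chordc1, while exon reads of Dnaja1, Ahsa2, Dnajb2 and Chordc1 are highest at 3 h and those of Creld2 at 6 h.

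Genes of the contractile cytoskeleton fell on introns in 6 of 18 cases from 1 to 3 h, and none was called on exons. Of the 18 listed actin and serum response factor targets measured on introns, 9 had risen by 1 h and 6 fell from 1 to 3 h: Myl9, Tagln, Acta2, Tpm1, Vcl and Cnn2. Of all genes tested on introns, 3.73% had risen by 1 h and 0.889% fell from 1 to 3 h. The list's median change on introns was -0.50, with -0.38 in series 2 and -0.61 in series 13. On introns 15 of 18 were lower in both series, as were 2417 of all 11589 genes. On exons none of 18 was called in either direction, and the median was -0.02. The actin isoform gene Actg2, which is not on the list, moved likewise and is among the 10 largest intron falls.

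Promoter stretches of genes with an early precursor rise are shown because the serum response factor site, the CArG box, is found in several of them. They come from RefSeq (GRCm38.p6), are 100 bases long, lie before the annotated start and are read 5′ to 3′ on the gene's strand, with the CArG box in capitals. Each stretch of the first 4 genes belongs to a precursor that fell again from 1 to 3 h, as does that of Asb2, whose mature RNA then rose. The regions are chr2:156775258-156775357 (plus strand) for Myl9, chr10:79988499-79988598 (plus) for Cnn2, chr14:20929148-20929247 (plus) for Vcl, chr15:99820150-99820249 (minus) for Lima1 and chr12:103356011-103356110 (minus) for Asb2.
Myl9: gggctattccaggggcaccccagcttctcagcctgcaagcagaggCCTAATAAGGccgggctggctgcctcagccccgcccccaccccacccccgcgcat
Cnn2: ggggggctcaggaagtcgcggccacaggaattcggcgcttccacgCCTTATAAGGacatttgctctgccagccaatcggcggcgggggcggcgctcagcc
Vcl: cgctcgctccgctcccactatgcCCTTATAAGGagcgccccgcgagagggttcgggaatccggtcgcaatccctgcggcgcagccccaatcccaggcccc
Lima1: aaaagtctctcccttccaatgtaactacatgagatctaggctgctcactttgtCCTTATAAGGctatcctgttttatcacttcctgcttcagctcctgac
Asb2: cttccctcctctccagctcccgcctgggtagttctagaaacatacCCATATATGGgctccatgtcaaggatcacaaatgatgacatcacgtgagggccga

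The CArG box was searched on both strands in windows from 250 bases before to 50 after each start. It was found for 6 of the 44 turned-back early rises with a window (13.6%), for 24 of 335 early rises (7.16%) and for 142 of the 9149 genes tested on introns with a window (1.55%). The 6 are the 5 genes shown and Prkab2. Of the 18 listed actin and serum response factor targets with a window, 7 had the box: Actg1, Cnn2, Fhl1, Fhl2, Filip1l, Myl9 and Vcl. Actg1 did not turn back, while Tagln, Acta2 and Tpm1, which fell on introns, are not among the 7. The cyclic AMP response element TGACGTCA was found for 1 of the 44, Btg2 (2.27%), and for 3.65% of the genes tested on introns. A match describes these letters and does not show binding. Only exact matches inside the window were counted, so the lack of one does not show that a site is absent.

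Myl9 codes for a regulatory light chain of myosin, and its precursor had the largest mean intron fall of the genes called. Its intron reads went from 2.06 to 7.10 and back to 2.10 CPM at 0, 1 and 3 h in series 2, and from 0.896 to 5.09 and 1.30 CPM in series 13, a mean fall of 1.71 on the log2 scale. Exon reads of Myl9 were 48.7, 49.5 and 42.8 CPM in series 2 and 25.9, 25.9 and 24.4 in series 13. Mature RNA of Myl9 was not called up at 1 or 3 h, and by 9 h exon reads stood at 13.5 and 11.9 CPM. Tagln, an actin-binding protein of contractile cells, fell on introns from 55.3 to 29.0 CPM in series 2 and from 17.4 to 5.86 in series 13. Its exon reads went from 709 to 604 and from 201 to 155 CPM.

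Actg2, a smooth muscle actin, went on introns from 22.7 to 11.4 CPM in series 2 and from 2.71 to 0.819 in series 13, and on exons from 121 to 96.9 and from 11.6 to 9.10 CPM. The series differed several-fold in the level of Tagln and Actg2 at every time, while the direction of change was shared. For Acta2, the other smooth muscle actin, the mean intron change was 1.39 in the first hour, and the changes from 1 to 3 h were -0.89 and -1.45, and its exon changes in the later interval were -0.12 and -0.14. Vcl, which links actin to adhesion sites, had intron changes of 0.60 and 1.42 and then -0.74 and -1.08. Actg1, a cytoplasmic actin on the same list, had risen on introns from 7.58 to 14.8 and from 5.39 to 13.8 CPM in the first hour and was at 15.2 and 11.3 CPM at 3 h, so not all members turned back.

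Targets of YAP, a coactivator sensitive to cell tension, and genes of matricellular proteins were lower on introns at 3 h than at 1 h in both series in 17 of 17 members. Of all 11589 genes, 2417 were lower in both. Of the 17 members 3 fell (0.889% of all genes did): Cyr61, Ctgf and Thbs1. The list's median was -0.59 on introns and -0.27 on exons, and 4 members had risen on introns in the first hour, as had 3.73% of all genes. Cyr61, a secreted matricellular protein and immediate early gene, was 1 of the 4 early precursor rises whose mature RNA fell from 1 to 3 h; the others were Dedd2, Phlda1 and AC148011.1. Cyr61 intron reads were 25.7, 52.9 and 34.1 CPM at 0, 1 and 3 h in series 2 and 6.37, 28.8 and 7.23 in series 13. Its exon reads rose and fell with them, from 324 to 598 and 350 CPM in series 2 and from 79.5 to 415 and 89.8 CPM in series 13, so both kinds of read were close to their level at 0 h by 3 h. Ctgf, coding for a related protein, had intron changes of -0.88 and -0.81 and exon changes of -0.43 and -0.57 from 1 to 3 h.

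Among the immediate early genes, which respond within minutes to many stimuli and code for short-lived RNAs, 3 of 23 fell on exons and none rose. Of all genes, 0.686% fell and 0.98% rose on exons. Egr1, a zinc finger transcription factor, had the largest mean exon fall of the genes called. It stood at 7.78, 18.9 and 3.77 CPM at 0, 1 and 3 h in series 2 and at 6.00, 32.4 and 4.03 in series 13. Its relative Egr2 went from 5.98 to 2.28 and from 16.4 to 4.37 CPM between 1 and 3 h, and Fos, a subunit of AP-1, from 1.41 to 0.559 and from 4.32 to 0.624 CPM. These 3 genes were below the level needed for a test on introns. In the same interval of cooling, Egr1 changed on exons by -1.13 in series 5 and 2.48 in series 11. Egr2 changed there by 0.06 and 1.08, and Fos by -0.07 and 0.04. Btg2, an antiproliferative gene, fell on introns from 2.15 to 1.2 and from 1.97 to 0.466 CPM, a call lost with a pseudocount of 1 CPM, and its exon changes were -0.57 and -1.16. Atf3, a stress-induced factor, was at 5.04 and 13.5 exon CPM at 1 h and 5.32 and 11 at 3 h.

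**Figure D4:**
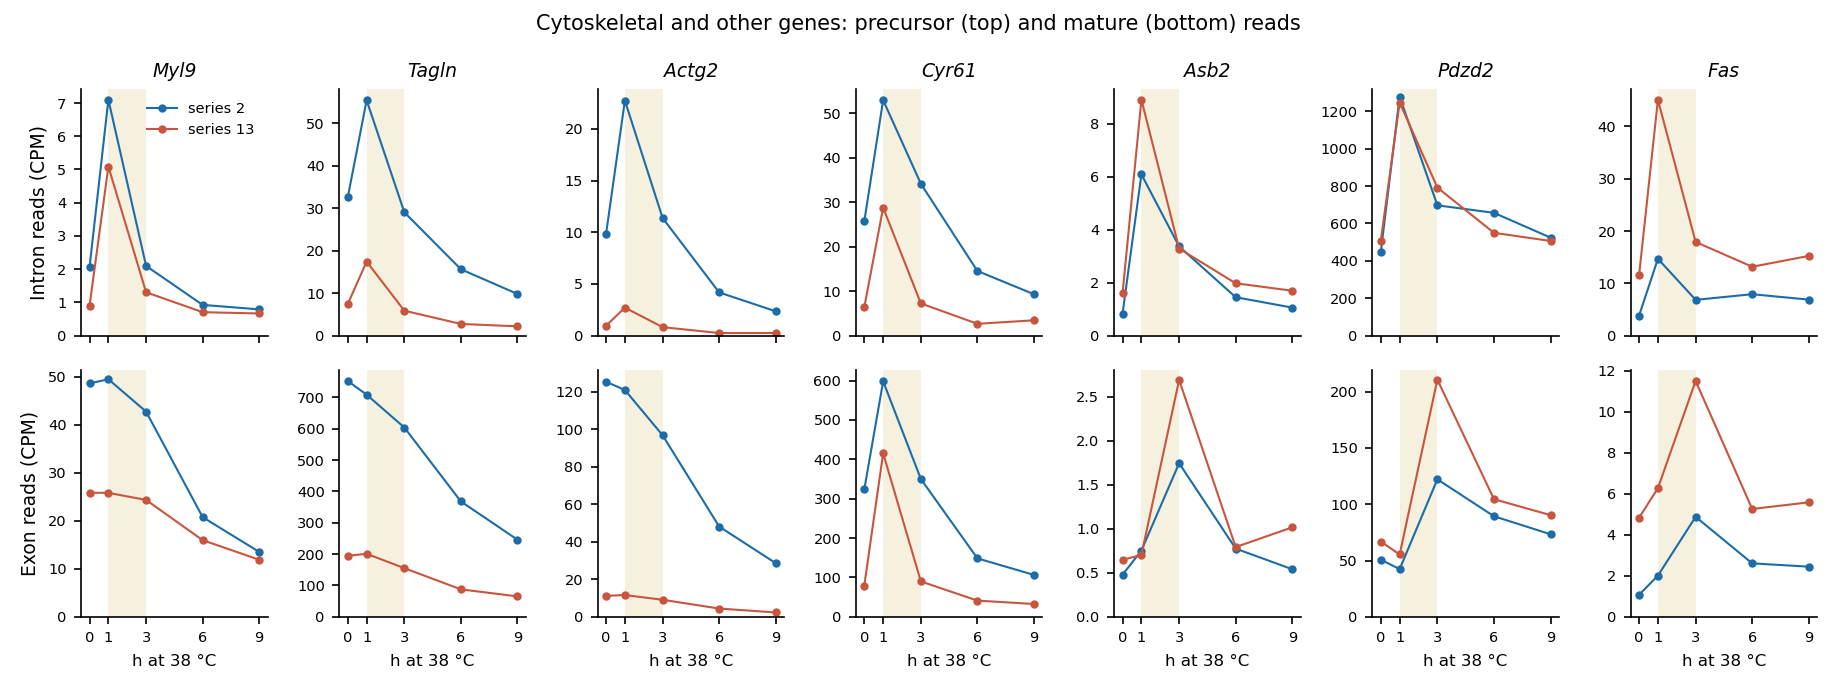
Intron reads (top) and exon reads (bottom) in CPM against hours at 38 °C for 7 genes, with 1 line per series and the interval from 1 to 3 h shaded; vertical axes start at 0. All 7 have their highest intron level at 1 h in both series, while exon reads peak at 1 h for Cyr61 and at 3 h for Asb2, Pdzd2 and Fas, and are lowest at 9 h for Myl9, Tagln and Actg2.

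Of the 110 rises in mature RNA, 97 had a measured intron level and 36 of those followed an early precursor rise, which 3.73% of all genes had. Of the 43 turned-back early rises with a measured exon level, 7 rose on exons in the same interval: Asb2, Pdzd2, Gpr176, Fas, Ahsa2, Lman2l and Msrb3. So did 36 of the 319 early rises with an exon level and 0.98% of all genes. Pdzd2, a large protein with PDZ domains, had 448, 1278 and 697 intron CPM at 0, 1 and 3 h in series 2 and 508, 1247 and 792 in series 13. Its exon reads were 50.8, 42.4 and 122 CPM in series 2 and 66.8, 55.4 and 211 in series 13, a mean rise of 1.72 (3.30-fold) from 1 to 3 h. Of the times sampled, the intron level was highest at 1 h and the exon level at 3 h in both series. The intron fall of Pdzd2 was not called when introns were scaled by exon totals, and several other annotated genes overlap it. Asb2, the substrate-binding part of a ubiquitin ligase, had 0.829, 6.09 and 3.37 intron CPM in series 2 and 1.59, 8.90 and 3.29 in series 13. Asb2 exon reads were 0.478, 0.752 and 1.74 CPM in series 2 and 0.647, 0.702 and 2.69 in series 13, and fell back to 0.774 and 0.792 CPM at 6 h.

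Fas, the death receptor, had 3.82, 14.7 and 6.84 intron CPM in series 2 and 11.5, 45.1 and 17.9 in series 13. Its exon reads, unlike its intron reads, were higher at 3 h than at 1 h, with 1.07, 2.01 and 4.88 CPM in series 2 and 4.83, 6.28 and 11.5 in series 13. Gpr176, an orphan receptor, was unlike these in its first hour. Its exon reads fell from 17.5 to 7.59 and from 6.02 to 3.69 CPM while its intron reads rose from 39.8 to 81.3 and from 19.2 to 65.6 CPM, and its exon reads then rose to 13 and 10.3 CPM at 3 h.

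Syt11, a synaptotagmin with a role in vesicle traffic, was the 1 early precursor rise that rose further. Its intron reads went from 0.523 to 4.16 and 7.68 CPM at 0, 1 and 3 h in series 2 and from 1.74 to 7.68 and 12.8 CPM in series 13. Exon reads of Syt11 were 0.615, 0.616 and 3.62 CPM in series 2 and 2.31, 2.06 and 7.63 in series 13, a mean rise of 1.97 after no increase in the first hour. They were higher still at 6 h, with 6.98 and 12.1 CPM. Spice1, a centriole protein, followed the same order more weakly, with 15.2, 31.1 and 38.0 intron CPM and 4.09, 5.44 and 12.4 exon CPM in series 2, and 29.9, 46.0 and 52.7 intron CPM and 8.51, 8.99 and 17.2 exon CPM in series 13.

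Among genes of the endoplasmic reticulum (ER), where secreted proteins fold, 3 of 21 rose in mature RNA from 1 to 3 h. Of the 21 listed ER chaperones and unfolded protein response genes, 7 had risen and 1 had fallen on introns by 1 h. Over all genes, 3.73% had risen and 3.29% had fallen. None of the 7 turned back by 3 h, and none of the 21 had risen on exons by 1 h. From 1 to 3 h, Creld2, Herpud1 and Sdf2l1 rose on exons, none fell, and 18 of 21 were higher in both series. Of all 11220 genes, 0.98% rose on exons and 4066 were higher on exons in both series. The list's median was 0.35 on exons and 0.06 on introns. Creld2, an ER protein with a role in folding, had exon reads of 53, 67.8 and 119 CPM at 0, 1 and 3 h in series 2 and 57.2, 64.8 and 156 in series 13. Its intron reads were 21.9, 47.2 and 50.0 CPM in series 2 and 18.9, 55.1 and 49.5 in series 13.

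Herpud1, which acts in the removal of misfolded ER proteins, rose on exons from 63.2 to 117 and from 141 to 306 CPM between 1 and 3 h. Sdf2l1, a partner of the main ER chaperone, rose from 44.5 to 75.1 and from 70.5 to 153 CPM. That chaperone, Hspa5 (BiP), had 1561 and 1589 CPM at 1 h and 2114 and 2539 at 3 h, changes of 0.44 and 0.68, of which the first is under the threshold. Of the 23 measured genes of the ATF4 stress response, 1 rose on exons, as did 0.98% of all genes. It was Trib3, a pseudokinase, which went from 4.95 to 9.51 CPM in series 2 and from 30.9 to 63.5 in series 13. The early intron rise of Herpud1 was lost with TMM scaling, with the size factors of DESeq2 and with introns scaled by exon totals.

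The promoters of Creld2 and Sync, both early precursor rises with a later mature rise, are shown with a motif in capitals. In Creld2 (chr15:88819479-88819578, plus strand) it is the ER stress response element, CCAAT and CCACG with 9 bases between them, here in the reverse direction. In Sync (chr4:129287436-129287535, plus strand), which codes for a partner of intermediate filaments, it is the heat shock element, as the units GAA, TTC and GAA with 2 bases between each.
Creld2: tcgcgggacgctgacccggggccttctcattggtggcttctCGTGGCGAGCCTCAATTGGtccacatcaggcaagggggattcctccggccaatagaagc
Sync: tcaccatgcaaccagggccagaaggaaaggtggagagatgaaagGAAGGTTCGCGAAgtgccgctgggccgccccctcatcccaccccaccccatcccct

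On both strands, the ER stress response element was found in windows of 8 of 19 listed ER genes and of 15 of the 9149 genes tested on introns (0.164%). Heat shock elements, in that order of units or as TTC, GAA and TTC, were found in windows of 5 of 31 listed chaperone genes (16.1%) and in 0.59% of the genes tested on introns. The 5 are Chordc1, Dnajb6, Hspd1, Hspe1 and Hsph1, and in Chordc1 and Hsph1 the match reaches past the annotated start and is not shown. Among the 6 chaperone genes that turned back, the element was found in the window of Hsph1 alone. Here too only exact matches were counted, so the others may have a site that was missed. Sync, chosen for display after its values were seen, had intron changes of 0.86 and 1.51 in the first hour and exon changes of 0.86 and 1.03 from 1 to 3 h.

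Some early precursor falls were also reversed. Of the 381, 44 rose again on introns from 1 to 3 h and 8 fell further. At any size, 236 were higher at 3 h than at 1 h in both series and 53 were lower. Of all 11589 genes, 5072 were higher and 2417 lower in both. At 3 h 144 of the 381 still stood at least 1.5-fold under 0 h, as did 2.23% of all genes. Of the 229 with a measured exon level, 31 fell on exons from 1 to 3 h and 2 rose. Chosen in series 2 and read in series 13, 15.1% of 657 falls (5.67% of genes) turned back, against 2.64% of all genes, and 16.5% of those with an exon level fell on exons, against 2.12%. With the series exchanged, 20.7% of 858 falls (7.4% of genes) turned back, against 5.46%, and 11.1% fell on exons, against 2.25%.

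Pcdh10, a protocadherin of cell adhesion, had the largest exon fall among them. Its intron reads dropped from 23.8 to 2.06 CPM in series 2 and from 39.7 to 4.41 in series 13 within the first hour and were 2.47 and 3.36 at 3 h. The exon reads of Pcdh10 fell from 1 to 3 h, with 10.5, 8.23 and 2.81 CPM at 0, 1 and 3 h in series 2 and 13.2, 13.3 and 3.25 in series 13. Nxpe4 likewise fell on exons in the later interval, with 10.3, 10.8 and 3.97 exon CPM in series 2 and 19.1, 17.6 and 5.71 in series 13. Msi1, an RNA-binding protein, fell on exons from 1.1 to 0.181 and from 3.01 to 0.986 CPM after an intron fall from 4.85 to 1.02 and from 8.66 to 2.81 CPM. Abca1, a cholesterol exporter, had exon changes of 0.14 and 0.12 in the first hour and of -0.91 and -1.17 in the later interval, and Eif2ak2, a kinase activated by double-stranded RNA, had -0.26 and -0.03, then -0.76 and -0.89.

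Yod1, a deubiquitinase, was one of the 2 early falls with a later mature rise. It went on introns from 8.39 to 2.25 and 7.14 CPM at 0, 1 and 3 h in series 2 and from 7.49 to 2.03 and 4.93 in series 13. On exons Yod1 went from 27.5 to 9.37 and 17.8 CPM and from 23.8 to 9.1 and 15.6 CPM, so precursor and mature RNA fell and recovered together. The other of the 2 was the unnamed gene model Gm10800. Npr3, a clearance receptor for natriuretic peptides, went on introns from 12.2 to 27.4 and from 6.21 to 17.2 CPM between 1 and 3 h with exon changes of 0.06 and 0.30. Xaf1, an interferon-inducible gene, rose on introns from 1.69 to 3.99 and from 3.07 to 7.31 CPM, with exon changes of -0.48 and -0.30. The intron call of Npr3 in the first hour was lost with TMM scaling and with introns scaled by exon totals. That of Xaf1 was lost with a pseudocount of 1 CPM. Has2, which makes hyaluronan, rose on introns by 0.84 and 1.22 after a fall by 1.80 and 1.5.

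Cirbp, the cold-inducible RNA-binding protein gene in the study's title, fell on exons from 1 to 3 h, after an intron level that was lower at 1 h than at 0 h in both series. Its exon reads were 83.9, 62.5 and 30.5 CPM at 0, 1 and 3 h in series 2 and 76.6, 50.5 and 14.5 in series 13, a mean fall of 1.41 from 1 to 3 h. Its intron reads were 19.6, 13.6 and 14.5 CPM in series 2 and 15.7, 8.75 and 8.25 in series 13. The intron changes were -0.52 and -0.82 in the first hour, past 1.5-fold in series 13 alone, and 0.09 and -0.08 from 1 to 3 h. Rbm3, the other cold-inducible gene, was at 326 and 297 exon CPM at 1 and 3 h in series 2 and at 214 and 162 in series 13, changes of -0.14 and -0.40 that did not reach the threshold. On introns, unlike Cirbp, Rbm3 was among the early precursor rises, and it was not called from 1 to 3 h.

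Clock genes gave 3 exon rises among 17 and 2 intron rises among 18, with none in the other direction. Of all genes, 0.98% rose on exons and 0.915% on introns. Per2, a repressor of the clock, rose on exons from 8.95 to 19.3 and from 22.8 to 39.0 CPM and on introns from 26.8 to 50.5 and from 48.9 to 81.1 CPM. Arntl, its activator, rose on exons from 6.36 to 11.7 and from 9.46 to 20.0 CPM. On introns Arntl rose from 27.7 to 46.0 and from 50.2 to 100.4 CPM. The exon level of Arntl at 0 h was 16.01 CPM in series 2 and 11.96 CPM in series 13. Its exon rise in series 2 thus regained part of an earlier drop, with a log2 change from 0 to 3 h of -0.45. In series 13 that change was 0.73. Nfil3, a repressor tied to the clock, rose on exons from 4.19 to 7.88 and from 6.29 to 13.5 CPM. For Per2 and Arntl precursor and mature RNA rose in the same interval, unlike the delayed genes above.

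Among the other lists, calls were few. Of 18 p53 targets measured on exons 1 rose, Fas, and of 17 measured on introns 2 fell, Fas and Btg2, with a median of -0.42 on introns and 15 of 17 lower in both series. Over all genes, 2417 of 11589 were lower on introns in both. From 1 to 3 h, 0.98% of all genes rose and 0.686% fell on exons, and 0.915% rose and 0.889% fell on introns. Bnip3 and Pdk1, a mitophagy receptor and a kinase that limits pyruvate oxidation, rose on introns among 24 glycolysis and hypoxia genes. Bnip3 went from 9.29 to 15.1 and from 21.7 to 44.9 CPM, and Pdk1 from 25.7 to 39.8 and from 29.0 to 56.0 CPM. The call of Bnip3 was lost with DESeq2 size factors, and that of Pdk1 with those, with TMM scaling and with introns scaled by exon totals. Osgin1 was the 1 called member of 19 antioxidant genes on introns, also lost with either scaling, and Chaf1b, a histone chaperone subunit, the 1 of 28 replication genes on exons, a fall from 79.2 to 49.5 and from 57.8 to 37.0 CPM. No member was called, on exons or introns, in the lists of mitosis, histones, cholesterol synthesis, fibroblast matrix, SR proteins, hnRNP proteins, splicing kinases, NF-kB targets, TGF-beta feedback, ribosome biogenesis and nuclear long noncoding RNAs. Within those, 20 of 25 matrix genes were lower on exons in both series (median -0.20), as were 3541 of all 11220 genes. The mitosis list had a median of 0.40 in series 2 and 0.03 in series 13.

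**Figure D5:**
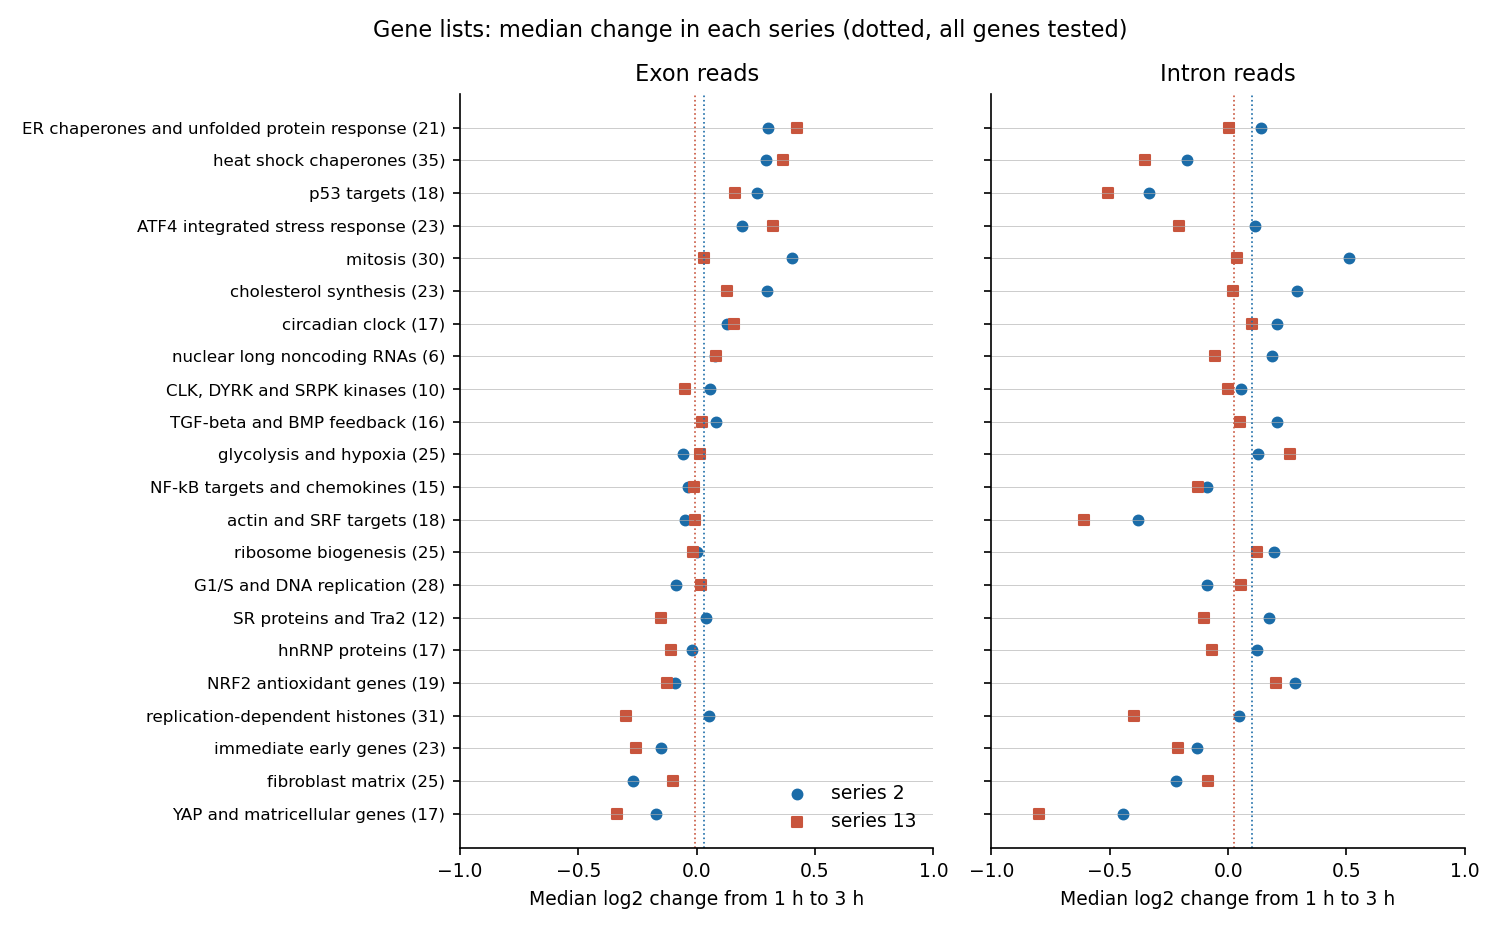
Median log2 change from 1 to 3 h of each gene list in series 2 (circles) and series 13 (squares), for exon reads on the left and intron reads on the right; numbers in parentheses count the members measured on exons, and dotted lines mark the median of all genes in each series. ER and heat shock chaperones lie highest on exons (0.35 and 0.33 as the mean of the series) and YAP targets (-0.59) and actin genes (-0.50) lie lowest on introns, while mitosis genes differ between the series.

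Turned-back early rises had a median gene length of 22725 bases, beside 16525 for the early rises that did not turn back and 26252 for all genes tested on introns, with quartiles of 12960 to 53604, 8431 to 32470 and 11970 to 60153. Early falls had a median length of 36270 bases. The intron level at 1 h had a median of 31.5 CPM over the turned-back rises and 14.5 over the others. Of the 52 turned-back rises, 36 (69.2%) overlap another annotated gene, beside 51.3% of the other early rises and 56.4% of all genes tested. Without the overlapping genes, 200 early rises remained to be counted, and 16 of them turned back.

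In the cooling course, which shares no sample with warming, the same interval gave 43 rises (0.381%) and 62 falls (0.549%) among 11286 genes on exons, 0.93% in all, and 48 (0.408%) and 50 (0.425%) among 11752 on introns, 0.834% in all. Of the 104 genes that rose on exons in warming and were measured in cooling, 13 fell and none rose in cooling. Of the 72 that fell in warming, 10 rose and none fell. Cirbp changed by 1.15 and 0.99 in series 5 and 11 of cooling, Pcdh10 by 1.06 and 1.63 and Syt11 by -0.77 and -0.60. Chordc1, Creld2 and Pdzd2, all lower in both cooling series, were not called there.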

How the data were processed

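For each of 38087 genes the authors deposited estimated counts, of exon reads and of intron reads; the tables are named for RPKM. The values differ in total between columns, and 15.8% are whole within 1e-06. Per the submitters' processing notes, the authors used STAR, bedtools and mm10. Not given in the sources used here are their annotation, rule for shared reads and use of strand. Counts were scaled by column totals to CPM. Genes with a mean of at least 1 CPM over the 10 warming columns were tested, exons and introns apart, with a pseudocount of 0.25 CPM, and 3 h was set against 1 h within series 2 and 13. The procedure was tested on simulated data. TMM (edgeR 4.0.16) and size factors (DESeq2 1.42.0, R 4.3.3) served as alternatives. Positions and overlaps come from GENCODE M21 (GRCm38), which held 95.3% of the genes. Promoters come from RefSeq and were matched by Entrez identifiers or symbols. Genes named were Cirbp, Rbm3, the 10 largest changes per direction and read type, the 10 largest early rises and 5 largest early falls, the 10 largest mature rises after early rises, and up to 5 per list; others were chosen after their values were seen. Of 525 entries in 23 gene lists and 6 marker lists, 522 were in the table. Members, lists and motifs were chosen with earlier results of these data known. Series 10 of the cooling course was not used.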

Additional observations from a re-analysis of the deposited data

Results flagged for a closer look

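Among the genes singled out for naming, for 8 results both series of cooling moved opposite to both series of warming between 1 and 3 h, each past 1.5-fold; the difference was not tested. On exons, the mean warming change was 1.97 for Syt11, 1.02 for Fas and 1.04 for Spice1, while the cooling changes in series 5 and 11 were -0.77 and -0.60, -0.67 and -1.05, and -0.70 and -0.62. In the other direction it was -1.41 for Cirbp, -1.53 for Msi1, -1.49 for Nxpe4 and -1.71 for Pcdh10. Their cooling changes were 1.15 and 0.99, 0.72 and 0.74, 0.85 and 0.62, and 1.06 and 1.63. On introns the gene AC125399.1 changed by 1.43 and 0.73 in series 2 and 13 of warming (mean 1.08) and by -0.84 and -1.26 in cooling.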

How the results depend on the processing

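Counts are given in the order: warming exon calls (187), warming intron calls (209), early precursor rises (432), those turned back (52), those followed by a mature rise (36), early precursor falls (381), those turned back (44), cooling exon calls (105) and cooling intron calls (98). A pseudocount of 1 CPM gave 121 warming exon, 131 warming intron, 54 cooling exon and 37 cooling intron calls and 23 turned-back falls. A mean of at least 5 CPM gave 118 and 124 in warming, 56 and 36 in cooling, 228 falls and 27 turned back. No filter gave 359 warming intron, 165 cooling exon and 253 cooling intron calls, 591 falls and 68 turned back. A 2-fold threshold gave 18, 16, 107, 5, 3, 80, 2, 9 and 4. Summed columns gave 359, 481, 650, 113, 72, 698, 124, 247 and 259. Series 2 alone (5 in cooling) gave 619, 828, 920 rises, 138 followed, 657 falls, 153 turned back, 519 and 543. Series 13 alone (11 in cooling) gave 496, 664, 690, 193, 83, 858, 153, 455 and 688. Introns scaled by exon totals gave 245 falls and 55 cooling intron calls. Keeping introns of genes overlapping no other gene, chosen after seeing the data, gave 80 warming intron calls, 200 rises, 16 turned back, 11 followed, 151 falls, 20 turned back and 41 cooling intron calls. A stricter threshold, a higher pseudocount or fewer genes lowers such counts by construction; for the others the cause was not tested. With TMM scaling and with DESeq2 size factors each of these totals stayed within 1.5 times. The same 175 of 187 exon and 177 of 209 intron calls stood with TMM scaling, as did 49 of the 52 turned-back rises. Over all settings, 2590 gene values moved by less than the spread between the series and 114 by more, and no called value changed sign. Another threshold or filter leaves the change of a gene as it is, so those settings could not move it and swell the first count. Of gene values and list medians together, TMM scaling moved 37 by more than the spread and 254 by less. With DESeq2 size factors these were 41 and 250. No paired analysis was possible because each time has 1 sample; the changes were taken within each series throughout. Genes near 1 CPM rest on few reads, and depth limits what can be seen there.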
